A study of Mus musculus with 24 samples.

Results

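The data compare RNA of the left hippocampus from old and young wild-type mice, the ageing arm of a study of drugs against NF-κB and NLRP3. The comparison took every library labelled Old Control, from mice aged 20 months, and every library labelled Young Control, from mice aged 9 months, which is 8 of the 24 libraries in the series. Each group held 4 mice of a strain labelled C57/B6, which the study names C57Bl/6J, 2 with F and 2 with M in the title, and neither group received the drug. The old libraries are called old F2, F3, M1 and M3 here, and the young libraries young F2, F4, M1 and M4. Polyadenylated RNA was sequenced and reads were counted per gene, and the 8 libraries held between 20559259 and 26143009 counts. One library was made per mouse, so the spread within a group is that between mice and the tissue taken from them.

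The hippocampus forms and retrieves memories of places and events. Its principal neurons are the granule cells of the dentate gyrus and the pyramidal cells of the CA fields, and new granule cells are made in the dentate gyrus after birth. Microglia, the resident macrophages of the brain, sense damage through surface receptors that signal by small adaptor proteins, and they make the first component of complement. In ageing brain, microglia and astrocytes are known to take on reactive states with more expression of complement, antigen presentation and interferon-stimulated genes. In tissue RNA, more cells of a type and more RNA per cell cannot be told apart.

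The tissue label was checked first against marker genes. All 8 libraries expressed markers of astrocytes (Aqp4, 112 to 181 CPM), microglia (Cx3cr1, 39.1 to 96.9 CPM) and oligodendrocytes (Mbp, 1510 to 6980 CPM), where CPM is the count of a gene scaled to a common library size. The granule cell markers C1ql2 and Prox1 were low in old M1 and young M4. C1ql2 stood at 1.08 and 2.59 CPM there, against 52.5 to 218 CPM in the other 6. Prox1 stood at 10.9 and 2.63 CPM, against 31.3 to 92.9 CPM. Calb1, a further granule cell marker, was low in young M4 (5.13 CPM) but not in old M1. It stood at 94.9 CPM in old M1 and at 74.0 to 113 CPM in the other 6. Both old M1 and young M4 had little C1ql2. Old M1 and young M4 also carried markers of other regions. The mean level of 20 olfactory bulb markers was 5.06 log2 CPM in old M1 and 6.52 in young M4, against 1.75 to 2.40 elsewhere, and that of 18 striatal markers was 5.85 in old M1 against 1.35 to 2.26 elsewhere. Gad1, the enzyme that makes GABA, was at 909 and 1950 CPM in old M1 and young M4 and at 208 to 306 CPM in the other 6. Hepatocyte markers summed to 754 CPM in old F3, 1077 in young F4 and 583 in young M4, and to between 13.1 and 161 CPM in the rest. Xist was at 311 to 657 CPM in the F libraries and at 0.0431 CPM or less in old M1, old M3 and young M1, but at 8.0 CPM in young M4, which also had the Y-linked gene Ddx3y at 54.7 CPM. The first principal component held 43.4% of the variance and set young M4 (94.3) and old M1 (46.2) apart from the other libraries (-35.8 to -5.45), so values without these 2 libraries are given beside the results they touch. The part of other regions in any result below was not tested beyond that.

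**Figure D1:**
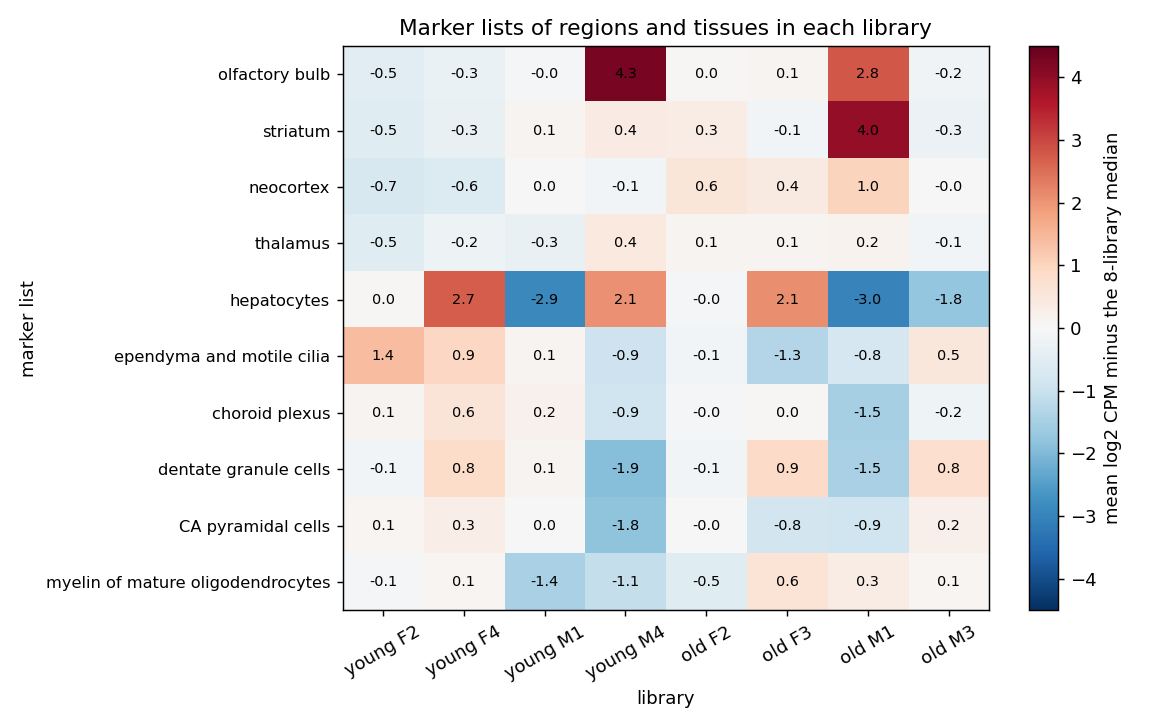
Mean log2 CPM of 10 marker lists (rows) in the 8 libraries (columns), each less the median of the 8 libraries, as printed in the cells. Olfactory bulb markers stand out in old M1 and young M4, striatal markers in old M1, and hepatocyte markers in old F3, young F4 and young M4.

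Of 15335 genes tested, 2 rose with age and none fell at an adjusted p under 0.05 in edgeR's quasi-likelihood test, 0.013% and 0.0% of the genes. The genes that rose were Tyrobp, the adaptor through which TREM2 and other receptors of microglia signal, and Ide, the protease that degrades insulin and amyloid-β. At an unadjusted p under 0.05, 962 genes were higher in old mice (6.27%) and 612 lower (3.99%). Counts of higher and lower list members below use this threshold, and a count near these shares is not particular to its list. All 4 old libraries lay above all 4 young ones for 672 genes (4.38%) and below them for 490 genes (3.2%). DESeq2, run on the same genes, called 179 genes higher (1.17%) and 56 lower (0.365%), and 226 of these 235 had no overlap between the groups. The median log2 fold change of all genes was -0.02.

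**Figure D2:**
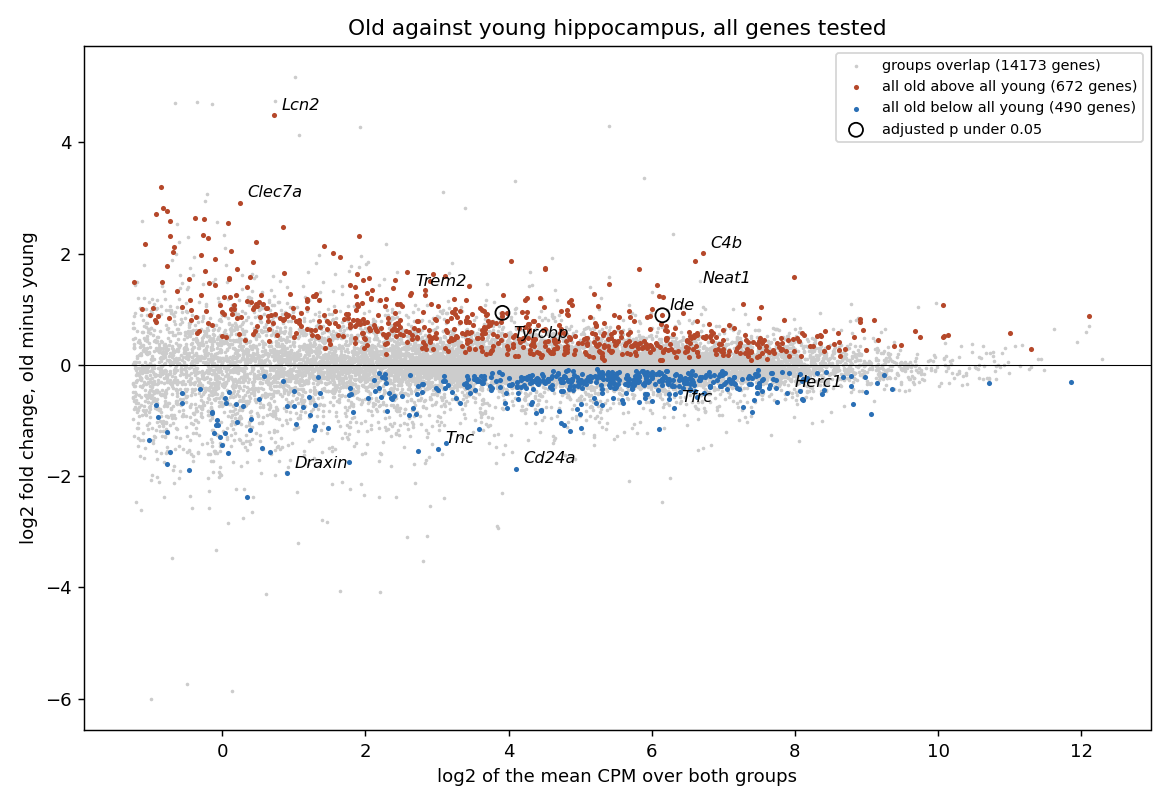
Log2 fold change of old against young (vertical axis) by the log2 of mean CPM (horizontal axis) for the 15335 genes tested. Red points are the 672 genes with all old libraries above all young ones, blue points the 490 with all old below, grey points the rest, and circles mark Tyrobp and Ide.

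Tyrobp stood at 18.4, 21.5, 19.8 and 19.4 CPM in old F2, F3, M1 and M3 and at 10.2, 10.7, 10.6 and 10.04 CPM in young F2, F4, M1 and M4. Neither group spread by more than a few CPM and the groups did not come near each other. The gene rose 1.91-fold, a log2 fold change of 0.93 ± 0.09 (SE, n = 4 and 4, edgeR adjusted p = 0.0413). It lies on chromosome 7 (chr7:30413782-30417582, GRCm38.p6). The 4 libraries of drug-treated mice of the same age, which the comparison leaves out, had 17.3, 21.0, 32.1 and 22.8 CPM when scaled with all libraries. The call was lost when any 1 of the 8 libraries was left out (adjusted p 0.0659 to 0.377), while the log2 fold change stayed between 0.89 and 0.97. Of 44 other genes tested within 500 kb, 3 had an unadjusted p under 0.05, and the groups did not overlap for Cd22, a lectin of B cells and microglia (log2 fold change 2.63), and Hspb6, a small heat shock protein (0.63).

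No other gene of the Tyrobp pathway passed the adjusted threshold. Trem2, the lipid-sensing receptor that pairs with Tyrobp, was at 12.6, 19.9, 16.7 and 15.9 CPM in old mice and at 6.84, 8.34, 8.26 and 8.50 CPM in young mice. The groups did not overlap, and the log2 fold change was 1.02 ± 0.16 (SE, edgeR adjusted p = 0.18). Fcer1g, the adaptor of Fc receptors, ranged from 10.1 to 14.3 CPM in old and from 5.94 to 7.91 CPM in young mice. Fcgr3, a low-affinity receptor for IgG, ranged from 13.2 to 22.4 against 7.85 to 9.63 CPM. Of 17 genes tested in the list of microglial adaptors and Fc receptors, 10 were higher at an unadjusted p under 0.05 and none lower, with a median log2 fold change of 0.55. Without old M1 and young M4 the count was 15 of 17, while over all 15335 genes it rose from 962 to 1337.

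Among genes of the state that microglia adopt around damage, called disease-associated, Tyrobp passed the adjusted threshold. Of 28 tested, Tyrobp included, 16 were higher at an unadjusted p under 0.05 and none lower, 15 had no overlap between groups, and the median log2 fold change was 0.56. Clec7a, a receptor for fungal glucans and a marker of that state, was at 1.46, 3.53, 1.25 and 2.14 CPM in old mice and at 0.340, 0.302, 0.291 and 0.163 CPM in young mice. Every old library was thus several-fold above every young one, and the log2 fold change was 2.91 ± 0.43 (SE, edgeR adjusted p = 0.18). Ctsz, a lysosomal protease, ranged from 50.4 to 67.2 against 25.5 to 38.0 CPM, and Cd68, a lysosomal membrane protein of macrophages, from 12.5 to 19.5 against 9.11 to 11.2 CPM. Of 16 markers of resting microglia tested, 2 were higher at an unadjusted p under 0.05, with a median of 0.35. Without old M1 and young M4 the counts were 12 of 16 for resting and 16 of 28 for disease-associated genes. Over all 15335 genes the count rose from 962 to 1337 in that fit. The difference between the lists was not tested. Tmem119, a surface marker of resting microglia, was at 27.2, 39.4, 19.1 and 31.4 CPM in old mice and at 20.4, 22.9, 22.1 and 17.5 CPM in young mice, with old M1 inside the young range. Aif1, which encodes IBA1, ranged from 4.81 to 8.09 against 3.25 to 4.15 CPM.

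Several complement genes made by microglia and astrocytes had no overlap between the groups. C1qb, a chain of the C1q recognition molecule, was at 56.9, 82.8, 63.7 and 67.4 CPM in old mice and at 30.5, 36.9, 37.8 and 33.9 CPM in young mice. The groups did not overlap (log2 fold change 0.96 ± 0.13, SE, edgeR adjusted p = 0.163). C1qa and C1qc, the remaining chains, had log2 fold changes of 1.0 ± 0.16 and 0.79 ± 0.15 (SE) and no overlap either. C4b, the complement component cleaved after C1q binds, was at 112, 234, 109 and 220 CPM in old mice and at 35.4, 36.0, 31.0 and 65.7 CPM in young mice. Its highest young value was that of young M4. The log2 fold change was 2.01 ± 0.35 (SE, edgeR adjusted p = 0.299), and 2.46 without old M1 and young M4. Mouse C4b has a close paralog, so its counts could include reads of both. Over the 23 complement genes tested, 9 were higher at an unadjusted p under 0.05 and none lower, with a median of 0.21.

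**Figure D3:**
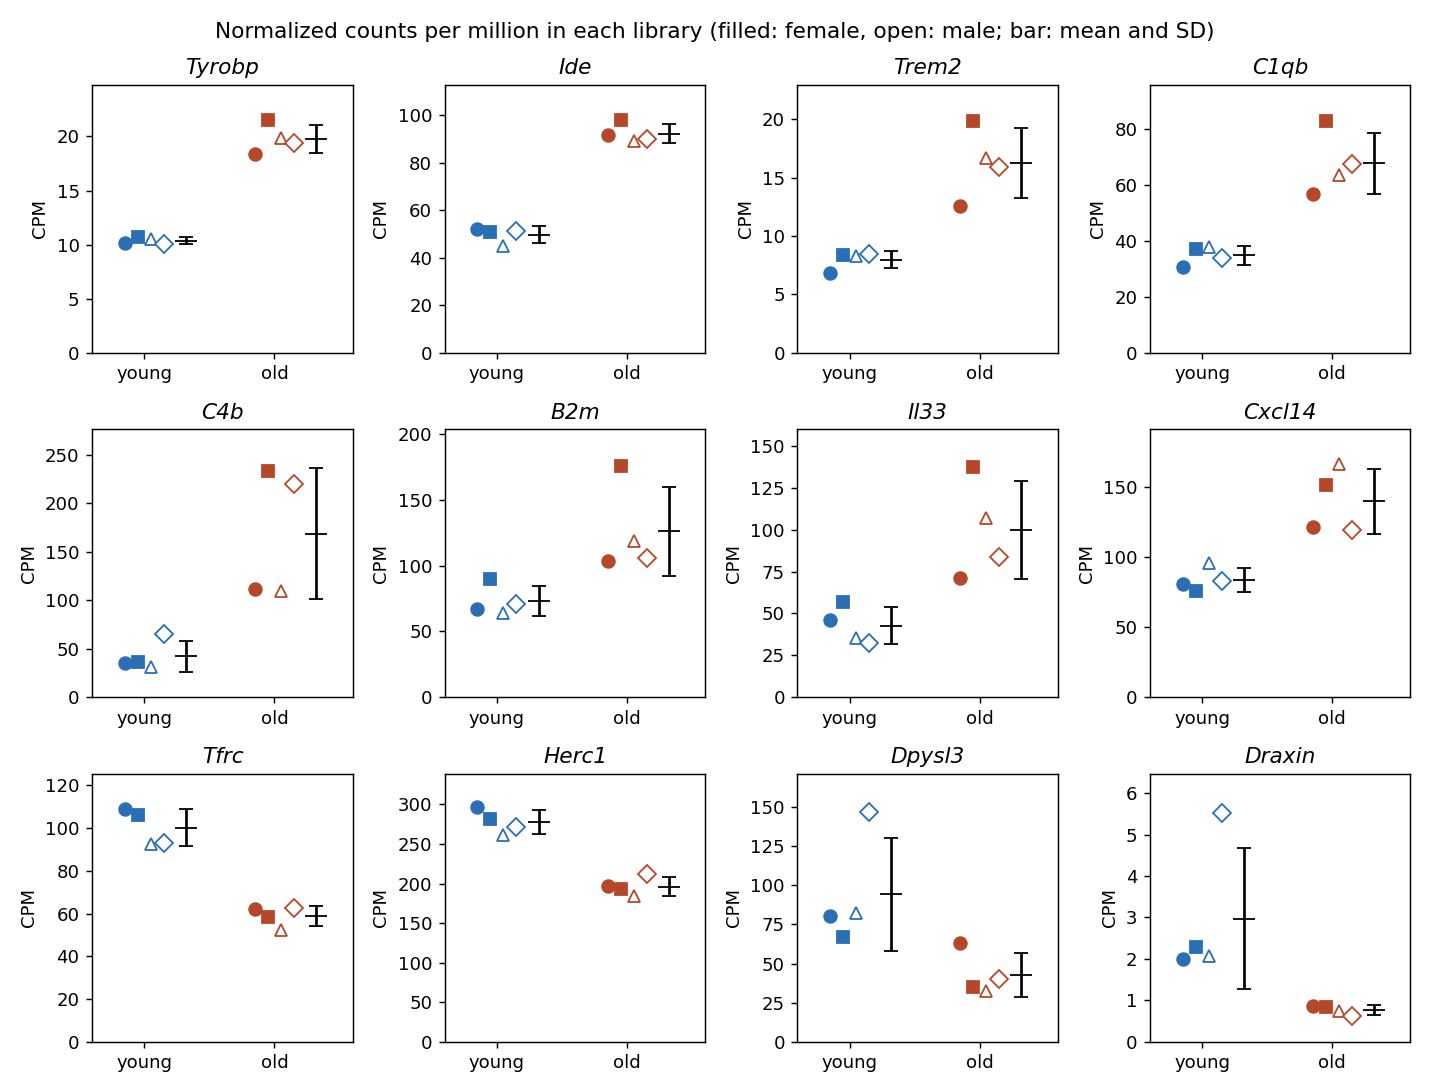
CPM (vertical axes, from 0) of 12 genes in each library, young in blue and old in red, filled for F and open for M libraries, with the mean and SD of each group as black bars. Tyrobp and Ide have no overlap and small spread, C4b and B2m spread more among old mice, and young M4 has the highest Dpysl3 and Draxin.

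Genes of MHC class I display peptides to T cells. Of 19 tested, 10 were higher at an unadjusted p under 0.05 and none lower, 7 had no overlap, and the median log2 fold change was 0.51, or 0.69 without old M1 and young M4. B2m, the shared light chain, was at 104, 176, 119 and 106 CPM in old mice and at 67.3, 90.0, 64.0 and 71.1 CPM in young mice. Each old library lay above each young one, with old F3 the highest (log2 fold change 0.79 ± 0.19, SE, edgeR adjusted p = 0.334). H2-K1, a heavy chain, was at 38.2, 67.0, 42.2 and 34.5 CPM in old mice and at 21.3, 31.2, 19 and 29.2 CPM in young mice. H2-D1, another heavy chain, was at 10.8, 26.7, 19.3 and 12.3 against 6.59, 9.03, 4.90 and 12.1 CPM, with old F2 below young M4. Heavy chain genes are closely related, so reads may be shared among them. H2-Q4 ranged from 5.29 to 13.2 against 2.87 to 4.49 CPM, and Psmb8, a subunit of the immunoproteasome, from 4.46 to 9.41 against 2.70 to 3.94 CPM.

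Stretches of the H2-K1, H2-D1 and B2m promoters are printed because they hold motifs of NF-κB and of interferon-regulated factors, the pathways these genes are best known to answer to. In H2-K1 and H2-D1 the capitals mark GGGATTCCC, an NF-κB motif, and TTTCACTTC, an interferon response motif. In B2m they mark GAAACTGAA, an interferon response motif, and GGAAAGTCC, an NF-κB motif. Sequences are from RefSeq (GRCm38.p6), 5′ to 3′ on the gene's strand, at chr17:34000414-34000472 (minus strand), chr17:35262909-35262967 (plus strand) and chr2:122147533-122147584 (plus strand).
H2-K1: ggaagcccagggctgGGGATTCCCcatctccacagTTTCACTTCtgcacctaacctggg
H2-D1: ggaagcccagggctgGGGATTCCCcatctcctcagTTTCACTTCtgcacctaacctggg
B2m: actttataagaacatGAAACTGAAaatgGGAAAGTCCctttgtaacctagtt

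The motifs were chosen after the promoters had been seen, and both strands were searched in 27025 genes with a promoter, from 250 bases before to 50 after the start. GGGATTCCC was in 112 genes (0.414%), GGAAAGTCC in 108 (0.4%), TTTCACTTC in 161 (0.596%) and GAAACTGAA in 189 (0.699%). Of the 14 class I genes with a promoter, 2 held GGGATTCCC (H2-K1 and H2-D1), 4 held TTTCACTTC (also H2-Q4 and H2-M3), and B2m alone held the other motifs. Of 29 interferon-stimulated genes with a promoter, 10 held GAAACTGAA, among them Ifit1 and Stat2. GAGGAAGT, a motif of the macrophage factor PU.1, was in 997 genes (3.69%) and in 3 of 13 promoters of the adaptor and Fc receptor list (Inpp5d, Vav1 and Pirb), 1 of 23 of the disease-associated list (Spp1), 1 of 13 of the complement list (C1qc) and none of the class I and interferon lists. A match describes the letters in a window and says nothing of binding in these mice.

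Of 37 interferon-stimulated genes tested, 15 were higher at an unadjusted p under 0.05 and none lower, 6 had no overlap, and the median was 0.57. Oas2, a sensor of double-stranded RNA, was at 1.42, 2.35, 0.864 and 0.934 CPM in old mice and at 0.213, 0.216, 0.208 and 0.447 CPM in young mice. The groups did not overlap and the log2 fold change was 2.33 ± 0.46 (SE, edgeR adjusted p = 0.302). Zc3hav1, an antiviral protein that binds CpG-rich RNA, ranged from 9.86 to 13.6 against 3.90 to 6.02 CPM, and Xaf1 from 3.63 to 7.86 against 1.83 to 3.19 CPM. Of 9 MHC class II genes tested, 3 were higher, with a median of 0.83. Ctss, the protease that processes the class II invariant chain, was among them at 83.2 to 145 against 50.5 to 64.6 CPM. Lymphocyte markers were low: 2 of the 22 listed passed the filter, and the list summed to 2.58 to 4.85 CPM outside old M1, where Cd4 alone was at 27.7 CPM.

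The targets of the study's drugs did not differ detectably. Nfkb1, the p105 subunit of NF-κB, was at 19.1, 22.5, 15.5 and 21.2 CPM in old mice and at 20.4, 22.2, 20.7 and 19.6 CPM in young mice, and the groups overlapped. Its log2 fold change was -0.08 ± 0.13 (SE, edgeR adjusted p = 0.846). Nlrp3, the sensor of the inflammasome, was below 2 CPM in every library, with a log2 fold change of 0.05 ± 0.39 (SE, edgeR adjusted p = 0.968), an error too wide to exclude a moderate difference. Rela, the p65 subunit, had a log2 fold change of 0.13 ± 0.11 (SE). Of 16 NF-κB subunits and regulators tested, 1 was higher at an unadjusted p under 0.05, Bcl3, a nuclear cofactor of NF-κB, at 0.946 to 2.41 against 0.170 to 0.691 CPM. Of 19 toll-like receptor and inflammasome genes, 3 were higher and none lower, beside 6.27% and 3.99% of all genes. Tlr2, a receptor for bacterial lipoproteins, ranged from 1.51 to 3.39 against 0.778 to 0.913 CPM, and Ly86 from 11.3 to 16.3 against 6.38 to 8.81 CPM.

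Of 16 chemokines and cytokines tested, 6 were higher at an unadjusted p under 0.05 and none lower. Il33, an alarmin stored in nuclei of glia, was at 71.0, 138, 107 and 83.8 CPM in old mice and at 46.1, 56.9, 35.2 and 32.6 CPM in young mice. Cxcl14, a chemokine, was at 121, 152, 166 and 120 against 80.8, 75.7, 96.0 and 83.2 CPM. Neither gene overlapped between the groups (log2 fold changes 1.23 ± 0.25 and 0.74 ± 0.14, SE, edgeR adjusted p = 0.309 and 0.299). S100a8, a calcium-binding protein of neutrophils, was at 0.236, 0.188, 1.21 and 1.52 CPM in old mice and at 0.0850, 0.389, 0 and 0.0406 CPM in young mice. The old M libraries held the high values and the young M libraries the low ones. Ido1, which degrades tryptophan, was at 5.92 CPM in old M1 and at 0.0830 CPM or less in the other 7 libraries.

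Astrocyte genes were examined as a reactive and a homeostatic list. Of 26 reactive astrocyte genes, 11 were higher and 2 lower at an unadjusted p under 0.05. Of 18 homeostatic genes, 9 were higher and none lower. The medians were 0.55 and 0.36. Tnc, a matrix glycoprotein on the reactive list, was among the lower genes (log2 fold change -1.51 ± 0.32, SE) and had no overlap. Gfap, the intermediate filament of astrocytes, was at 526, 739, 274 and 808 CPM in old mice and at 358, 426, 313 and 252 CPM in young mice. Old M1 lay within the young range, and the log2 fold change was 0.80 ± 0.33 (SE, edgeR adjusted p = 0.468), or 0.91 without old M1 and young M4. Lcn2, an iron-binding protein of reactive astrocytes, was at 0.512, 0.941, 4.23 and 7.0 CPM in old mice and at 0.128, 0.173, 0.0415 and 0.203 CPM in young mice, higher in the M than in the F libraries of the old group. Prodh, which breaks down proline, ranged from 32 to 45.5 against 14.8 to 23.9 CPM, and S100b, a calcium-binding protein of astrocytes, from 133 to 225 against 93.9 to 120 CPM.

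Myelin genes were lowest in the young M libraries. The mean of 23 genes was 7.36 and 7.09 log2 CPM in old M1 and M3 against 5.57 and 5.95 in young M1 and M4, and 6.47 and 7.64 in old F2 and F3 against 6.93 and 7.12 in young F2 and F4. All 23 were higher on average in old than in young M mice (median difference 1.44 log2 CPM), and 9 of 23 in F mice (median -0.07). At an unadjusted p under 0.05 for the interaction of sex and age there were 13 of 23 genes, beside 3.48% of all genes, and none passed the adjusted threshold. Mbp, a main protein of myelin, spanned 2810 to 6980 CPM in old and 1510 to 5570 CPM in young mice. With F and M mice together, 5 of the 23 genes were higher at an unadjusted p under 0.05. Il33, also counted above among the chemokines and cytokines, was 1 of the 5. The median of 0.52 became 0.29 without old M1 and young M4. Pmp22, a myelin membrane protein, was at 24.8, 42.9, 39.6 and 33.2 against 17.2, 21.4, 14.6 and 18.2 CPM, and Apod, a lipid carrier, at 176, 301, 282 and 232 against 120, 145, 82.3 and 137 CPM. Both were free of overlap. Of 18 genes of precursors and differentiating cells, 1 was higher and 3 lower, beside 6.27% and 3.99% of all genes. Gpr17, a receptor of cells about to form myelin, was at 43.9, 52.9, 23.7 and 29.6 against 98.5, 91.3, 71.2 and 46.4 CPM. Old F3 lay above young M4, the lowest of the young group. Olig2, the transcription factor of the whole lineage, ranged from 47.2 to 75.7 against 32.9 to 44.5 CPM.

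Tfrc, the transferrin receptor that brings iron into cells and marks brain capillaries, had the smallest p among the genes lower in old mice. It was at 61.9, 58.2, 52.1 and 62.6 CPM in old mice and at 109, 106, 92.7 and 93.2 CPM in young mice. The groups were far apart relative to their spread, with a log2 fold change of -0.77 ± 0.10 (SE, edgeR adjusted p = 0.163). DESeq2 called it, as did limma with quality weights (adjusted p = 4.33e-08 and 0.0231). Hmox1, which releases iron from heme, ranged from 5.05 to 7.10 against 3.21 to 4.71 CPM. Of 19 iron genes tested, 2 were higher and 2 lower, beside 6.27% and 3.99% of all genes. Among 21 endothelial genes, 6 were higher and 1, Tfrc, lower. Icam1, the adhesion molecule that leukocytes bind, was at 4.34, 4.0, 4.28 and 4.01 against 1.91, 2.51, 2.74 and 2.28 CPM, and Ly6a, a surface protein of brain endothelium, at 13.4 to 24.9 against 9.15 to 12.1 CPM. Col4a1, a collagen of the vessel basement membrane, was at 32.9 to 61.4 against 57.6 to 83.3 CPM, and none of 18 collagen and fibroblast genes was higher while 3 were lower.

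Genes of newborn neurons had a negative median. Of 25 neurogenesis genes, 7 were lower and 1, Tbr1 (log2 fold change 1.24, no overlap), higher at an unadjusted p under 0.05. The median was -0.89. Without old M1 and young M4 the median was -0.61, with 13 lower and 3 higher, beside 915 and 1337 of all 15335 genes. Genes of the neurogenesis list are also used in the olfactory bulb. Young M4, which carried markers of the bulb, had the highest value of the list (5.04 log2 CPM against 4.19 to 4.28 in the other young libraries). Draxin, a guidance protein, was at 0.867, 0.847, 0.734 and 0.623 CPM in old mice and at 2.0, 2.29, 2.08 and 5.53 CPM in young mice. The groups did not overlap (log2 fold change -1.95, or -1.45 without old M1 and young M4). Dpysl3, a cytoskeletal protein of growing axons, was at 63.4, 34.8, 32.4 and 39.9 against 80.6, 66.8, 82.2 and 147 CPM, and Cd24a, a surface protein of immature neurons, at 8.32, 2.87, 8.64 and 9.84 against 28.5, 16.6, 15.4 and 47.9 CPM. Mki67, a marker of dividing cells, was at 1.22, 1.18, 1.43 and 1.09 against 2.42, 4.49, 1.91 and 1.30 CPM, with old M1 above young M4. Ependymal and motile cilia genes, whose cells line the ventricles, also had a negative median (-1.0), with 5 of 23 lower and 1, Spag6l, higher. The median difference was -1.65 log2 CPM in F and 0.16 in M mice, and 5 of 23 had an unadjusted p under 0.05 for the interaction of sex and age.

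Mean levels of the granule cell and CA pyramidal lists overlapped between the groups. Of 19 granule cell genes none passed an unadjusted p of 0.05. Of 19 CA pyramidal genes 1 was higher and 1 lower, each without overlap, and the median log2 fold change was -0.23. The median difference of the CA genes was -0.95 log2 CPM in F mice (5 of 19 positive) and 0.30 in M mice (14 of 19). Rbfox3, which encodes NeuN, had a log2 fold change of 0.07 ± 0.16 (SE) and Bdnf, a neurotrophin, -0.18 ± 0.54 (SE). Neocortical markers averaged 4.32 to 5.32 log2 CPM over 16 genes in old mice against 3.60 to 4.34 in young mice, so the ranges met only at their edges. Tbr1, a factor of deep-layer cortical neurons that is also on the neurogenesis list, was at 92.6, 97.2, 119 and 75.6 against 33.6, 56.8, 56.4 and 16.4 CPM. Cplx3, a complexin of the subplate, was at 15.1, 14.2, 14.9 and 7.55 against 2.42, 1.69, 6.85 and 6.14 CPM. These levels were as different without old M1 and young M4 (list medians 0.65 and 0.73), and their part in the neuronal values was not tested. Syt2, a calcium sensor of fast synapses, was also higher in old mice, at 11 to 39.4 against 2.52 to 9.98 CPM. Pvalb, the calcium buffer of fast-spiking interneurons, was at 34.8 to 48.5 against 5.45 to 26.4 CPM. Their lists did not follow them. Of 30 synaptic vesicle and release genes, 1 was higher and 0 lower at an unadjusted p under 0.05 (median -0.09). Of 21 interneuron genes, 1 was higher and 1 lower (median -0.26), beside 6.27% and 3.99% of all genes.

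Genes that activity induces within minutes gave no stable difference. The median of 25 was -0.40 with all libraries and 0.11 without old M1 and young M4. Npas4 was at 68.9 CPM in young M4 and at 4.44 to 10.8 CPM in the other 7 libraries, and Egr2 at 19.8 CPM in young M4 against 1.5 to 5.88 CPM. Among ion channels, Cacna1c, the pore of the L-type calcium channel, was at 118, 97.0, 134 and 133 against 205, 178, 181 and 305 CPM, and Hcn2, a pacemaker channel, at 260, 338, 410 and 303 against 213, 248, 201 and 215 CPM. Neither gene overlapped between the groups. Grik2, a kainate receptor subunit, differed little in size but with a small spread, at 49.8 to 52.5 against 59.9 to 64.3 CPM (log2 fold change -0.29 ± 0.07, SE, edgeR adjusted p = 0.328). Of 33 glutamate receptor and postsynaptic genes, 1 was higher and 2 were lower at an unadjusted p under 0.05. Of 33 potassium, sodium and HCN channel genes, 3 were higher and 2 lower, beside 6.27% and 3.99% of all genes.

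**Figure D4:**
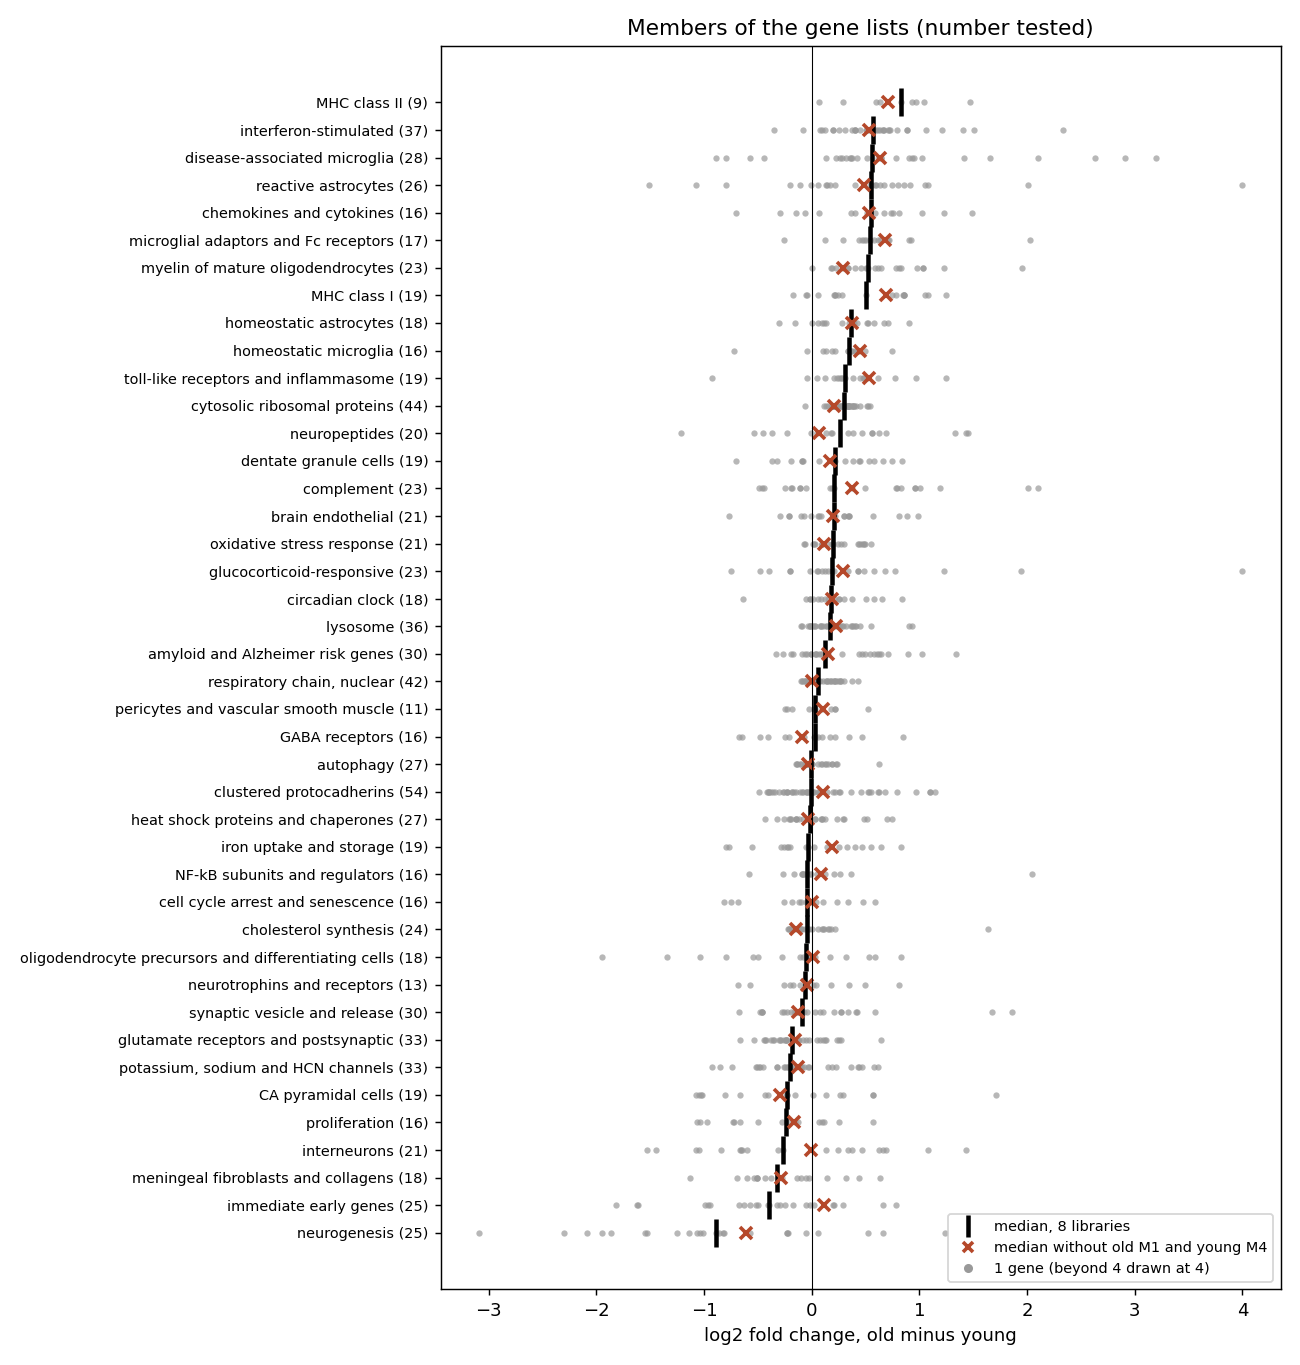
Log2 fold change of old against young (horizontal axis) for the members of each gene list (rows, with the number tested). Grey points are genes, black bars the medians over 8 libraries, and red crosses the medians without old M1 and young M4. Medians of MHC, interferon, microglial and astrocyte lists lie above 0 under both, while the immediate early genes cross 0.

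Ide, the second gene that rose, was at 91.4, 97.9, 89.2 and 90.1 CPM in old mice and at 52.2, 50.8, 44.7 and 51.2 CPM in young mice. The gap between the groups was wider than the range within either, and the gene rose 1.85-fold (log2 fold change 0.89 ± 0.08, SE, edgeR adjusted p = 0.0413). The drug-treated old mice had 99.2, 87.8, 91.3 and 99.7 CPM. As for Tyrobp, leaving out any 1 library ended the call (adjusted p 0.0659 to 0.318), with log2 fold changes from 0.84 to 0.92. Ide lies on chromosome 19 (chr19:37268743-37334544, GRCm38.p6), and 9 other genes within 500 kb were tested. The nearest, 4931408D14Rik, a noncoding transcript that starts 10.3 kb before the lower coordinate of Ide, was at 1.66, 2.68, 1.17 and 1.71 against 0.383, 0.302, 0.332 and 0.203 CPM (log2 fold change 2.54 ± 0.36, SE, edgeR adjusted p = 0.163). Fgfbp3, a carrier of fibroblast growth factors, was at 11.3, 12.8, 14.6 and 11.9 against 5.36, 4.80, 8.30 and 11.1 CPM, and Btaf1, a regulator of TBP, at 53.2, 60.2, 44.8 and 52.3 against 34.6, 38.7, 34.1 and 47.1 CPM. Cpeb3 and Tnks2, in the same interval, had log2 fold changes of -0.19 and -0.14. A duplication that covers Ide and Fgfbp3 is known to differ between C57BL/6J mice. Gene copies were not measured here, so age and copy number cannot be told apart for these genes.

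**Figure D5:**
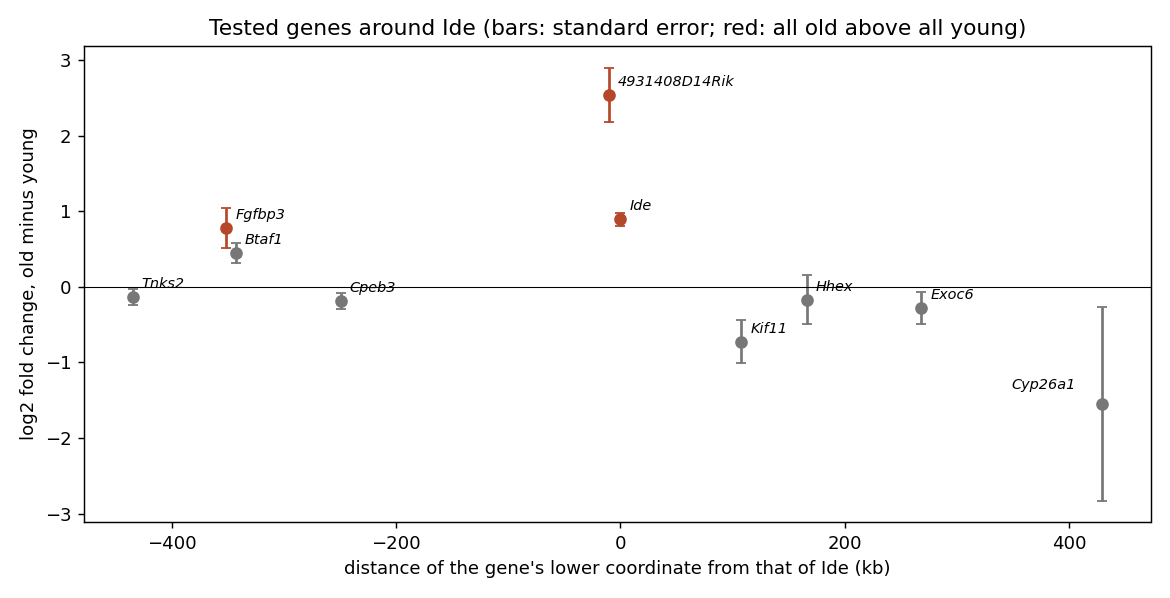
Log2 fold change with its standard error (vertical axis) of the 10 tested genes around Ide, by distance in kb from the lower coordinate of Ide (horizontal axis). Red marks genes with all old libraries above all young ones, which are Fgfbp3, 4931408D14Rik and Ide.

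Further genes, some of them on the lists above, also had no overlap between the groups. By size and p, 415 higher and 254 lower genes met the conditions for being named (a mean count of at least 50, no overlap, and the same direction at an unadjusted p under 0.05 without old M1 and young M4). Spag6l, a protein of motile cilia and the 1 higher gene of the ependymal and motile cilia list, was at 3.55, 3.10, 6.35 and 5.76 against 1.10, 1.21, 1.04 and 1.30 CPM. Pisd-ps1 and Pisd-ps2, near-identical copies of a phospholipid enzyme gene whose reads may be shared, were at 268 to 473 against 108 to 174 CPM and at 44.1 to 75.2 against 19.6 to 28.0 CPM. Neat1, the noncoding RNA that builds paraspeckles, was at 82.6, 255, 99.4 and 174 against 38.0, 58.8, 37.0 and 34.0 CPM. Fbxw15, Abca8a, a transporter of the ABC family, and Ddit4l, an inhibitor of mTOR signalling, had log2 fold changes of 2.14 ± 0.30, 1.20 ± 0.18 and 1.26 ± 0.19 (SE). Plxdc1, and Gsg1l, an auxiliary subunit of AMPA receptors, had log2 fold changes of 1.75 and 1.73. Rxfp1, a relaxin receptor, had a log2 fold change of 2.31 ± 0.66 (SE), but old M1 (2.160 CPM) all but tied with young M1 (2.159 CPM). Its difference was 3.74 log2 CPM in F and 0.76 in M mice.

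Among lower genes, Herc1, a giant ubiquitin ligase, was at 196, 193, 184 and 212 against 297, 281, 262 and 272 CPM (log2 fold change -0.50 ± 0.09, SE, edgeR adjusted p = 0.299). Nav1, a microtubule protein of growing neurites, was at 113, 126, 84.6 and 133 against 204, 198, 180 and 193 CPM, and Adamts3, an extracellular protease, at 13.4, 12.1, 18.1 and 19.2 against 31.5, 28.7, 24.2 and 27.9 CPM. Tnc, a matrix glycoprotein of developing tissue, was at 2.42 to 5.87 against 8.34 to 15.1 CPM. The other lower genes named for their p or the size of their change were 4932438A13Rik, Dok4, Rimklb, Lrrc42, Cers6, Mfap2, Fstl5, Hydin, Catip, Thsd7b, Mex3a, Fbn2 and Frzb, with log2 fold changes from -1.74 (Hydin, of motile cilia) to -0.39 (4932438A13Rik). Young M4 was the highest library for Mex3a (24.6 CPM) and Fbn2 (30.6 CPM), and without it and old M1 their log2 fold changes were -0.65 and -0.54.

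Of 23 genes that respond to glucocorticoids, 7 were higher at an unadjusted p under 0.05 and none lower. Plin4, a lipid droplet protein, was at 3.75, 4.09, 3.33 and 8.79 against 1.62, 1.51, 1.20 and 0.854 CPM. Of 18 clock genes 3 were higher, beside 6.27% of all genes. Among them was Hlf, a clock output factor, at 199 to 283 against 95.5 to 148 CPM. By the study's methods, mice were kept on a reversed light and dark cycle and killed late in the morning. Of 54 clustered protocadherins, cell adhesion genes that give neurons an identity, 10 were higher and 4 lower, beside 6.27% and 3.99% of all genes. Pcdhb9 was at 22.3 to 29.9 against 13 to 18.1 CPM and Pcdhb2 at 6.13 to 9.60 against 2.57 to 4.25 CPM. Of 42 nuclear genes of the respiratory chain and 16 genes of cell cycle arrest and senescence, none passed an unadjusted p of 0.05.

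Longer genes had slightly lower fold changes. With the genes cut into 5 equal groups by genomic span, the median log2 fold change was 0.05 for the shortest genes (up to 7.80 kb) and -0.08 for the longest (from 75.1 kb), and 0.03 and -0.05 without old M1 and young M4. The within-group SD of these medians was 0.07 for the shortest and 0.05 for the longest genes, and old M1 lay farthest along the trend. For the difference of the age effect between F and M mice, no gene passed the adjusted threshold for the interaction in edgeR (smallest adjusted p 0.957), 534 genes (3.48%) had an unadjusted p under 0.05, and DESeq2 called 6. Myelin genes, above, made up 13 of the 534. Each sex and age held 2 mice, and both libraries with markers of other regions were from M mice.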

How the data were processed

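Raw counts per gene were deposited by the authors as 1 table of 24411 genes for 24 libraries. Per the labels and the study's methods, reads of polyadenylated RNA from TruSeq libraries were aligned with STAR to mm10. No source used here gives the counting program, its strand setting or any version, so reads of overlapping or antisense genes may not be told apart. Of the gene names, 27 had become dates and could not be named. All per-sample columns were matched to a sample (0 left out). The methods give more mice per group than the 4 libraries per group analysed here. Members and gene lists were chosen with earlier results of these data known. Lists share members, among them C4b, Psmb8, Il33, Lcn2 and Draxin, so counts of different lists are not separate results.

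Genes whose TMM-scaled counts averaged 10 or more over the 8 libraries were kept. Old and young were compared with edgeR 4.0.16 (R 4.3.3) by a robust quasi-likelihood test with TMM scaling and Benjamini-Hochberg adjustment over all genes tested (threshold 0.05). CPM values are TMM-scaled over the tested genes, while marker levels used to check tissue are scaled over all genes and all libraries, with a prior count of 2 for log2 values. The SE given is the absolute log2 fold change over the square root of the edgeR F statistic, for which spread is shared in part across genes. Alternatives used DESeq2 1.42.0 and limma 3.58.1. Gene positions came from RefSeq (GRCm38.p6), matched by name for 15268 genes tested.

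Named genes were those past the threshold, the 12 with the smallest p and the 10 with the largest change in each direction under the conditions given in the text, up to 4 with the smallest p per list, of which the text prints some, genes of interest to the study, and tested neighbours of the called genes. Some further list members were chosen after their values were seen. A named gene of the neuronal lists is not reported here.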

Additional observations from a re-analysis of the deposited data

Results flagged for a closer look

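A library whose value stood far from the other 3 of its group was looked for in 306 sets of 4 values. In all, 27 were found (8.82%). The limit used passes about 1 in 20 sets of independent, normally distributed values. Genes here were chosen, their CPM was not log-transformed and lists share members, so that rate does not give the number due to chance. Young M4 held 9 of the 27 and old M1 5. For marker lists, mean log2 CPM was 5.06 (old M1) and 6.52 (young M4) for olfactory bulb, 5.85 for striatum in old M1, 4.39 for CA pyramidal cells and 5.04 for neurogenesis in young M4, and 4.99 for neuropeptides and -0.68 for choroid plexus in old M1. It was 5.76 for lysosome in young F4 and 5.62 for amyloid and Alzheimer risk genes in old F3. Among genes, young M4 stood apart for C4b (65.7 CPM), Oas2 (0.447), Draxin (5.53), Npas4 (68.9), Mex3a (24.6) and Fbn2 (30.6), and old M1 for Ido1 (5.92 CPM). Old F3 was the highest for Tlr2 (3.39 CPM), Zc3hav1 (13.6), Abca8a (41.5) and Ddit4l (29.3). Old M3 stood apart for Plin4 (8.79 CPM) and Cplx3 (7.55), old F2 for Mfap2 (4.26), young F2 for Trem2 (6.84) and Catip (4.63), young M1 for Pisd-ps1 (174 CPM) and young F4 for Neat1 (58.8).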

How the results depend on the processing

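The number of called genes depended on the fit. At an adjusted p under 0.05, genes higher and lower in old mice numbered 2 and 0 with edgeR, 179 and 56 with DESeq2, 31 and 3 with limma and quality weights, 5 and 1 when the Old-Nano libraries shared the fit, and 17 and 7 when all 6 groups did. They numbered 0 higher with no filter, with sex as a covariate, without old M1 and young M4, and with any 1 library left out (0 to 0), and DESeq2 without old M1 and young M4, an alternative chosen after seeing the data, called 361 and 147. At an unadjusted p under 0.05, limma gave 1621 higher and 1255 lower, lower genes were 1017 with all 6 groups and 996 with the added DESeq2 fit, and leaving out 1 library gave 649 to 1336 higher and 332 to 1061 lower. Without old M1 and young M4, and with the filter applied again to the libraries left, edgeR had 1332 higher and 909 lower at an unadjusted p under 0.05. Old and young share only the numbers F2 and M1, whose deviations from the group means correlated at 0.384 and 0.007, so the numbers were not taken to pair mice. With the replicate block of these 4 libraries 0 genes were called higher, and log2 fold changes were 0.88 for Tyrobp and 0.90 for Ide. Tyrobp was not called when the Old-Nano libraries (adjusted p = 0.134) or all 6 groups (0.0731) shared the fit, while Ide was. DESeq2 called 6 genes for the sex by age interaction. Without old M1 and young M4, list medians became 0.53 for toll-like receptors and inflammasome, 0.69 for MHC class I, 0.11 for immediate early genes, 0.19 for iron and 0.15 for striatum, and medians by gene length -0.009 for the middle length group and -0.033 for the next longer one. Among the named genes, signs turned for Npas4, Nlrp3, Bdnf, Nfkb1, Rbfox3 and Ido1. Ido1 went from 4.72 to -0.04 without old M1 and young M4, in the fit that kept the genes of the main fit. Npas4 became 0.11 (edgeR and DESeq2) without old M1 and young M4. Nlrp3 became -0.23 with limma, -0.008 with sex and -0.18 with the replicate block, and lay between -0.21 and 0.28 with 1 library left out. With 1 library left out, Bdnf lay between -0.51 and 0.18, Nfkb1 between -0.15 and 0.015, and Rbfox3 between -0.005 and 0.15. The causes were not tested.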
